A study of Mus musculus with 4 samples.

Results

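Cells very rich in the transcript of Msmp were a small class of the stromal cells sorted from mouse long bones: 307 of 21483 barcodes that passed the quality thresholds. A barcode entered with at least 2000 unique molecular identifiers (UMIs, each standing for 1 captured transcript), at least 500 genes and at most 10% of UMIs from mitochondrial genes. It was a member when Msmp reached at least 50 u, where u is UMIs per 10000 UMIs of the barcode, and when Col9a1, Col9a2, Col9a3 and Matn3 summed to less than 20 u. The members were chosen by these measured levels of 5 genes, so the levels of these genes, and of any gene that goes with them across cells, are a description and not a finding. The members numbered 8 in the NHD13Tg library, 0 in WT_A1, 27 in Abcg2-MDS/AML and 272 in Control.

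Stromal cells of C57BL/6 mice were profiled by droplet single-cell RNA sequencing, in a study of mice that model myelodysplastic syndrome (MDS), a clonal disease of blood cell formation. Mice of the NHD13Tg library carried a Nup98-HoxD13 transgene, and this library is set against WT_A1, labelled wild type. The Abcg2-MDS/AML library, whose model the labels describe no further, is set against Control, also labelled wild type. Femora and tibiae were crushed and digested with collagenase in every library, and cells without CD45, TER119 and CD31 and with CD140a and CD51 were sorted. The labels give neither ages nor the number of mice behind a library. Each group has 1 library, and no difference between libraries of a pair has a replicate check. Their matrices hold 38763489, 37368880, 36133716 and 46033790 UMIs in NHD13Tg, WT_A1, Abcg2-MDS/AML and Control. All intervals below are at the 95% level and cover counting error only.

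Articular cartilage is layered. Its superficial zone faces the joint space and secretes lubricin, the product of Prg4, while deeper hyaline cartilage is built of collagens II, IX and XI and of aggrecan. Growth plate cartilage ends in hypertrophic cells that make collagen X before bone replaces them. Msmp encodes microseminoprotein, a small secreted protein, and Cytl1 encodes cytokine-like 1, a secreted protein known from cartilage.

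Msmp and Cytl1 name the class, and their promoters are shown because both transcripts are at high level in the same cells. The Msmp gene lies on chromosome 4 at 43583216 to 43584494, minus strand, with 3 annotated exons, and Cytl1 on chromosome 5 at 37735519 to 37739820, plus strand (GENCODE vM21, GRCm38). The 250 bases before each annotated start (RefSeq, GRCm38.p6; chr4:43584495-43584744, minus strand, and chr5:37735269-37735518, plus strand) are given 5′ to 3′, with the E-box letters CANNTG in capitals.
Msmp: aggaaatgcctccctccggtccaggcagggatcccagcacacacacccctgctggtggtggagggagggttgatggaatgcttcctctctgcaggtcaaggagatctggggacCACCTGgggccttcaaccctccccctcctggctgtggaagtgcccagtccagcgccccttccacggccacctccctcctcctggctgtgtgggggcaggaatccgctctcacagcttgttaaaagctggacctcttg
Cytl1: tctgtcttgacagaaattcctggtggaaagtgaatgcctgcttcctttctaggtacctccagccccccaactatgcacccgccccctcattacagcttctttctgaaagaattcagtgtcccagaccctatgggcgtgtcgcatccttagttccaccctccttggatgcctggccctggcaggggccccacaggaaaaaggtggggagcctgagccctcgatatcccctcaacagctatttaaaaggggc
Searched on both strands, the Msmp window held 1 match to CANNTG, read CACCTG, 137 bases before the start, and the Cytl1 window held none. These letters occur in 66.2% of 32841 promoter windows of the same length. ACAAT, letters bound by SOX factors and found in 27.7% of windows, was in neither window, nor were TATAAA (12.4%), TGANTCA (6.75%) and TGACG (17.8%).

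The label was compared with the markers of the class other than Msmp, whose level the rule itself sets. Cytl1, 1500015O10Rik, Crispld1, Clu and Cilp summed to 1030 u in NHD13Tg members against 44.5 u in its other cells, to 515 u in Abcg2-MDS/AML members against 217 u, and to 477 u in Control members against 233 u. Each of the 5 was above the other cells in all 3 libraries, as a description of cells that the same measurement selected. The 18 genes of the superficial zone list summed to 1199 u in NHD13Tg members, 917 u in Abcg2-MDS/AML members and 991 u in Control members. In the other cells they summed to 248 u, 404 u and 479 u, and 9, 11 and 12 genes were higher in members. The list holds the 5 markers, which made up 1030 u, 515 u and 477 u of the member sums. They made up 44.5 u, 217 u and 233 u of the sums in other cells. Sums and counts thus include the markers, and the list is no separate check of the label. Gdf5, a joint-forming growth factor of that list, was at 0 in NHD13Tg and Abcg2-MDS/AML members and at 0.0182 u in Control members.

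Msmp itself was spread over a wide range within the class. It ranged over cells between 71.7 and 1851 u with a median of 510 u in NHD13Tg, between 52.6 and 4603 u with a median of 182 u in Abcg2-MDS/AML, and between 53.8 and 6740 u with a median of 287 u in Control. It took 8.68%, 7.20% and 13.5% of all UMIs of the members in these libraries. In the richest Control cell 67.4% of 5846 UMIs came from Msmp. Members held 99.2%, 94.9% and 96.1% of the Msmp UMIs of all quality barcodes in NHD13Tg, Abcg2-MDS/AML and Control.

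**Figure D1:**
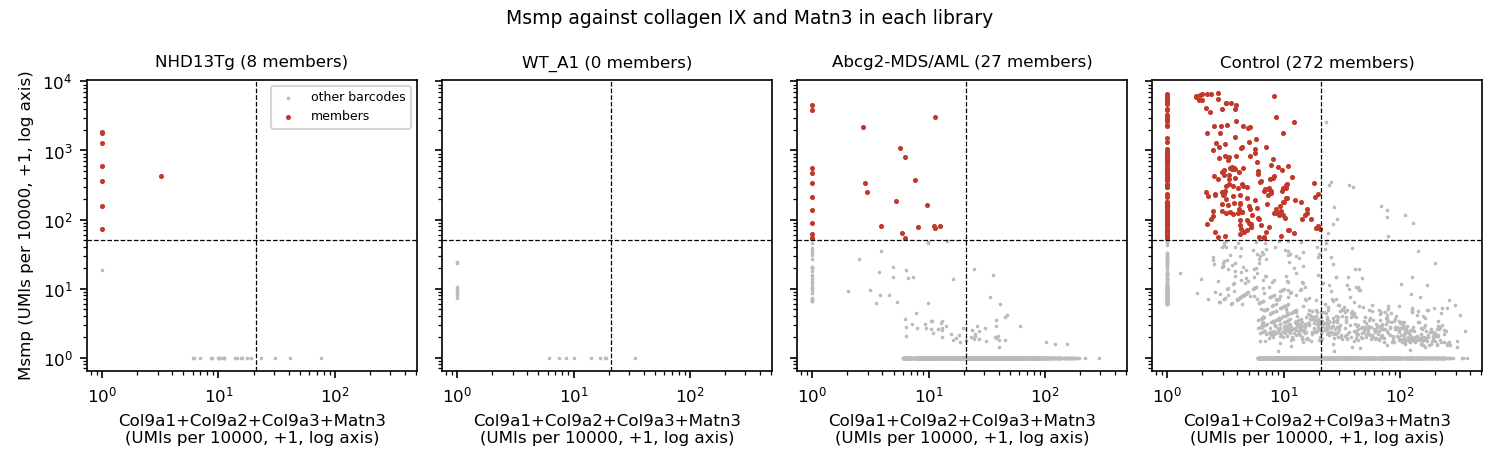
Each point is 1 barcode past the quality thresholds, with Msmp on the vertical axis against the sum of Col9a1, Col9a2, Col9a3 and Matn3 on the horizontal axis, both in UMIs per 10000 plus 1 on log axes; barcodes under 5 u in both are not drawn and dashed lines mark 50 u and 20 u. Red members fill the upper left field in Control (272 cells) and are sparse in Abcg2-MDS/AML (27) and NHD13Tg (8), and the 15 barcodes over both limits are all in Control.

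The cells next to the limits of the rule are given here once. In Control 10 members had 50 to 60 u of Msmp, with median Cytl1 of 348 u and median Prg4 of 114 u, and 12 barcodes just outside had 40 to 50 u, with medians of 234 u and 541 u. In Abcg2-MDS/AML 3 members were in this range, with median Cytl1 of 21.03 u and median Prg4 of 7.01 u, and 4 barcodes just outside had medians of 388 u and 273 u. These 3 members thus had less of both transcripts than the barcodes that the rule left out. At the other edge, 7 Control members had 15 to 20 u of the Col9 and Matn3 sum and 4 Msmp-rich barcodes had 20 to 25 u. Below the rule, 123 Control barcodes, 28 of Abcg2-MDS/AML, 2 of WT_A1 and 1 of NHD13Tg had 10 to 50 u of Msmp with a Col9 and Matn3 sum under 20 u.

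The 5 other markers also varied between libraries. Cytl1 stood at 308 u in NHD13Tg, 327 u in Abcg2-MDS/AML and 180 u in Control members, and 100%, 88.9% and 93.0% of cells had a UMI. The transcript 1500015O10Rik stood at 550 u, 82.5 u and 156.5 u. Clu, which encodes the extracellular chaperone clusterin, stood at 112 u, 70.4 u and 88.2 u, and Cilp, a cartilage matrix protein gene, at 51.6 u, 29.0 u and 41.8 u. Crispld1, a secreted cysteine-rich protein gene, was low at 9.09 u, 6.41 u and 10.8 u. Prg4 stood at 143 u, 379 u and 471 u in the members, and in NHD13Tg this was below the 177 u of the other cells of that library.

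Free RNA carried these transcripts too. In barcodes with 1 to 100 UMIs, Msmp stood at 1.003 u in NHD13Tg, 0.0763 u in WT_A1, 7.71 u in Abcg2-MDS/AML and 87.6 u in Control. Adipoq-positive reticular cells, which should lack Msmp, had a Msmp UMI in 0.218% of NHD13Tg cells, 0% of WT_A1 cells, 15.4% of only 13 Abcg2-MDS/AML cells and 30.9% of Control cells, with median depths of 4488, 4457, 3600 and 3559 UMIs. The members had median depths of 4253.5 UMIs in NHD13Tg, 5177 in Abcg2-MDS/AML and 5124 in Control. The highest Msmp of a barcode with a Col9 and Matn3 sum under 20 u outside the class was 48.6 u in Control, under the 87.6 u of its free RNA. The median member lay above the level of free RNA in NHD13Tg, Abcg2-MDS/AML and Control, but the Control members nearest the limit of 50 u lay below it. The libraries shared few barcodes, with 1 member each in NHD13Tg, Abcg2-MDS/AML and Control carrying a barcode also seen in another library.

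The first comparison asked how the class was represented in each model. In NHD13Tg the members were 8 of 5766 barcodes, a share of 0.139% (Clopper-Pearson interval 0.0599 to 0.273%). In WT_A1 they were 0 of 4973, with a Clopper-Pearson upper bound of 0.0742%; a limit of 3 counts for a count of 0 allows a share of up to 0.0603%. In Abcg2-MDS/AML they were 27 of 5586, or 0.483% (0.319 to 0.702%), and in Control 272 of 5158, or 5.27% (4.68 to 5.92%). The difference was 0.139 percentage points in the NHD13 pair (interval 0.0305 to 0.273) and -4.79 points in the Abcg2 pair (-5.46 to -4.16), so that the share was 10.9 times as large in Control as in Abcg2-MDS/AML.

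Cartilage as a whole was recovered very unevenly. Cells with at least 20 u of Col9 and Matn3, here called hyaline chondrocytes, numbered 4 in NHD13Tg, 1 in WT_A1, 772 in Abcg2-MDS/AML and 935 in Control. Of members and hyaline chondrocytes together, members were 27 of 799 (3.38%, 2.24 to 4.88%) in Abcg2-MDS/AML and 272 of 1207 (22.5%, 20.2 to 24.999%) in Control, a difference of -19.2 points (-21.9 to -16.4). In NHD13Tg members were 8 of 12 such cells. With 1 library per group these shares have no test, and the dissection and digestion of each library cannot be told apart from its group.

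The 8 NHD13Tg members were followed cell by cell. Their Msmp counts were 657, 1048, 616, 206, 189, 145, 81 and 20 UMIs, and in the same order Cytl1 had 10, 182, 149, 92, 295, 75, 232 and 15 UMIs. 1500015O10Rik had 107, 248, 145, 704, 312, 269, 86 and 4 UMIs in these cells. Each of the 8 carried the 3 transcripts, and Msmp and Cytl1 did not run in parallel, since the cell with 657 Msmp UMIs had 10 of Cytl1. Gdf6 was seen in 3 of the 8, with 11, 9 and 1 UMIs, and Col2a1 in 1 cell with 1 UMI. The NHD13Tg members thus held 0.293 u of Col2a1, against 8.83 u in Abcg2-MDS/AML and 13.5 u in Control members. In Abcg2-MDS/AML the cell richest in Msmp, with 1569 of 3409 UMIs, had 0 UMIs of Cytl1 and of 1500015O10Rik and 8 of Prg4. Of the summed marrow reticular list in NHD13Tg members, 32.5 u in all, 97.3% came from 1 cell.

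The genes of the sort and of the models were read in the members. Pdgfra, which encodes CD140a, stood at 0.586 u in NHD13Tg, 3.20 u in Abcg2-MDS/AML and 0.838 u in Control members, and Itgav, which encodes CD51, at 1.47 u, 0.458 u and 0.419 u. Ptprc, the CD45 gene, had 0 UMIs in all members, and Pecam1, the CD31 gene, had 3 UMIs, all in Control. Hoxd13 had 0 UMIs in all members. Nup98 had 0, 1 and 11 UMIs and Abcg2 had 0, 0 and 13 UMIs in NHD13Tg, Abcg2-MDS/AML and Control members, and these few 3′ tags do not check the models.

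Markers of fibroblasts, endothelium, mural cells and blood were low in the members. Summed fibroblast markers stood at 3.23 u, 1.76 u and 1.66 u in NHD13Tg, Abcg2-MDS/AML and Control, with Pi16 and Cd248 at 0 in all 3 libraries. Endothelial markers summed to 0, 0 and 0.0182 u and mural markers to 0, 2.03 and 0.802 u. Blood markers summed to 0.293 u, 0 and 4.52 u, and 85.6% of the Control sum came from 1 cell. Synovial lining markers summed to 146 u, 381 u and 472 u, nearly all of it Prg4, and Tspan15 was at 0 in all 3 libraries, with Clic5 and Col22a1 at 0 in NHD13Tg and Abcg2-MDS/AML. Osteoblast markers summed to 82.7 u, 57.5 u and 88.7 u, mostly Ibsp at 71.8 u, 51.5 u and 50.9 u, while Bglap and Bglap2, which encode osteocalcin, were at 0 in Abcg2-MDS/AML. Proliferation genes summed to 3.52 u, 2.75 u and 4.55 u.

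**Figure D2:**
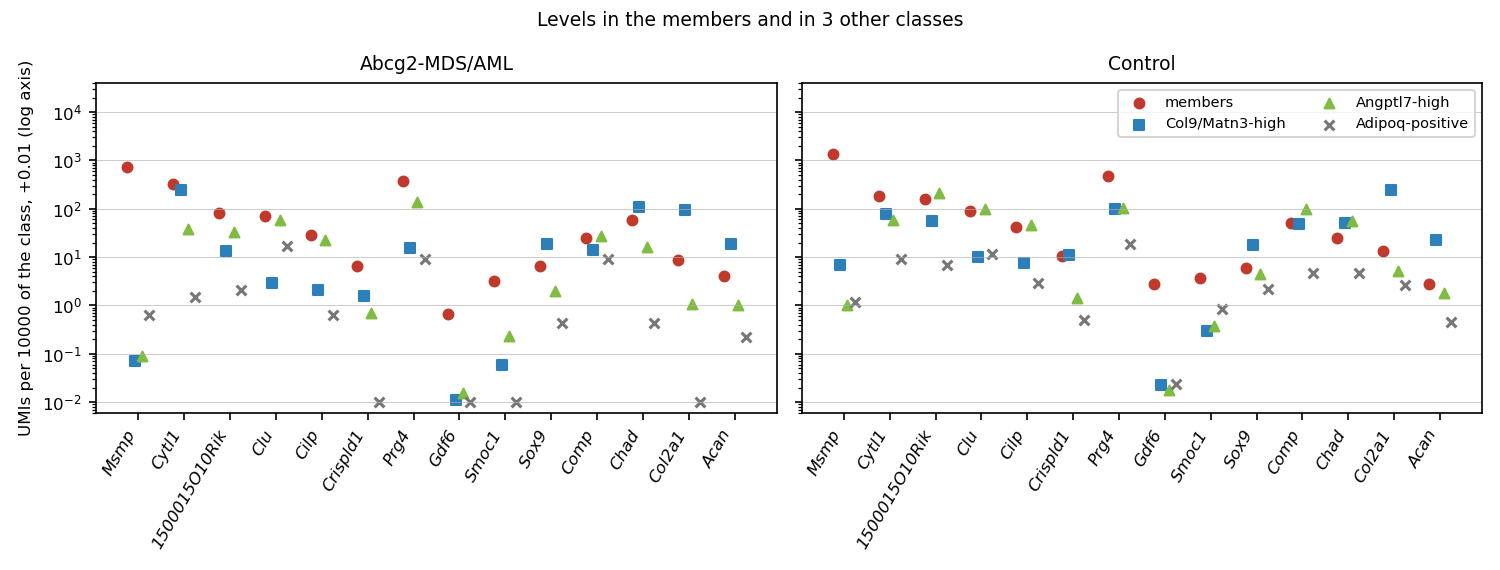
Summed UMIs per 10000 (plus 0.01, log axis) of 14 genes in the members, in hyaline chondrocytes (Col9/Matn3-high), in Angptl7-high tendon cells and in Adipoq-positive reticular cells of Abcg2-MDS/AML and Control; a point is the sum over the cells of 1 class in 1 library. Gdf6 and Smoc1 stand apart in the members of both libraries, Col2a1 is highest in hyaline chondrocytes, and in Control Clu is nearly level between members (88.2 u) and tendon cells (96.9 u).

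The members were next set against hyaline chondrocytes, the cartilage class from which a low Col9 and Matn3 sum divides them. The hyaline matrix list summed to 133 u in members and 439 u in these chondrocytes of Abcg2-MDS/AML, and to 146 u and 634 u in Control. Members had more Prg4, the lubricin gene, more Clu and more Gdf6, and less of 16 of 23 hyaline matrix genes. UMIs were summed per class and library and tested with edgeR's quasi-likelihood test with the library as a block and Benjamini-Hochberg adjustment at 0.05. At least 20 cells of a class were required, so that only Abcg2-MDS/AML and Control entered, with 1 residual degree of freedom and 1 spread shared by all genes. Of 10700 genes tested 9.85% were called, 450 higher in members (4.21%) and 604 lower (5.64%). The classes were cut on measured genes, and the calls describe what goes with that cut in these 2 libraries. CPM of classes in the class comparisons are counts per 1000000 without the 5 rule genes, and without Angptl7 in the comparison with tendon cells. CPM of free RNA count all genes.

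Gdf6, a bone morphogenetic protein family gene of joint formation on chromosome 4 (9844372 to 9862345), had the largest fold of the named genes higher in members. It stood at 70.5 CPM in members against 0.115 CPM in hyaline chondrocytes of Abcg2-MDS/AML, and at 318 CPM against 1.29 CPM in Control, a log2 fold change of 7.97. Members were far above hyaline chondrocytes in both libraries. Gdf6 was at 6.16 u in the NHD13Tg members as well, which did not enter the test, against 0.00461 u in the other cells of that library. Its level in free RNA of Control was 9.77 CPM.

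Several further genes higher in members encode secreted proteins. Smoc1, a secreted modulator of BMP signalling, stood at 338 CPM against 4.82 CPM in Abcg2-MDS/AML and 436 CPM against 29.6 CPM in Control, a log2 fold change of 4.60. Igfbp5, an insulin-like growth factor binding protein gene, stood at 825 against 13.1 CPM and 2526 against 99.7 CPM (5.05). Ecm1, an extracellular matrix protein gene, the axon guidance gene Ntn1 and Sod3, the extracellular superoxide dismutase gene, had log2 fold changes of 4.37, 4.23 and 4.13. Clu stood at 7590 against 292 CPM and 10207 against 1000 CPM (3.79). Lepr, the leptin receptor gene, stood at 120 against 3.79 CPM and 85.7 against 9.05 CPM (3.67), and Cracr2b (4.13) and Itih5 (3.49) complete the 10 largest.

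The 10 genes named as lower in members were led by Il17b. Il17b, a cytokine gene, had 0 UMIs in members of either library and 2280 in hyaline chondrocytes, at least 82.5-fold lower in members with 3 counts over the group as the limit. Prkg2, a cGMP-dependent kinase gene of growth plate cartilage, had 1 UMI in members and 2924 in chondrocytes (log2 fold change -8.51). Col10a1, the hypertrophic collagen gene, stood at 0 against 85.2 CPM in Abcg2-MDS/AML and at 4.22 against 405 CPM in Control (-6.70). The antitrypsin genes Serpina1a, Serpina1b and Serpina1d had log2 fold changes of -6.67, -5.07 and -5.14, but they are near-identical copies and the division of UMIs among them is uncertain. Fxyd2 (-7.22), Ppa1 (-5.50), Pcolce2 (-5.07) and Wnt4 (-5.03) followed, and Wnt4 differed between the libraries, with a log2 ratio of -0.99 in Abcg2-MDS/AML and -8.60 in Control. With DESeq2, Il17b (adjusted p = 0.359) and Wnt4 (adjusted p = 0.494) were not called.

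By list, 12 of 17 superficial zone genes tested were higher in members and 1, the protease gene Htra1, was lower, with a median log2 fold change of 1.95 against -0.11 over all genes. Clu, Cilp and 1500015O10Rik, counted among the 12, are markers of the class, so this count is no separate check of the label. Prg4 stood at 40827 against 1570 CPM in Abcg2-MDS/AML and 54524 against 9931 CPM in Control, a log2 fold change of 3.34. Erg (2.35) and Creb5 (2.22), transcription factor genes of articular cartilage, and Wif1, a secreted Wnt inhibitor gene (2.48), were also among the 12. Cytl1, which names the class, was not called: it stood at 35259 against 24671 CPM and 20832 against 7811 CPM (0.73, adjusted p = 0.514), nor was Crispld1 (0.89, adjusted p = 0.0905).

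The hyaline matrix list showed the opposite split, with 0 of 23 genes higher and 16 lower, a direction that the Col9 and Matn3 limit itself favours. Col2a1 stood at 951 against 9326 CPM in Abcg2-MDS/AML and 1567 against 25140 CPM in Control (-3.89), and Acan, the aggrecan gene, at 430 against 1895 CPM and 317 against 2248 CPM (-2.73). Comp, which encodes a matrix protein of cartilage and tendon, was not called (0.36, adjusted p = 0.756), nor was Chad, the chondroadherin gene (-1.06, adjusted p = 0.111). Sox9, the master factor of cartilage, was lower in members at 698 against 1866 CPM and 681 against 1792 CPM (-1.63), while Sox5 (-0.41) and Sox6 (-0.45) were not called. Among 15 transcription factor genes 3 were higher, namely Barx1 (3.25), Osr2 (1.26) and Nfia (1.23), and 7 lower. Hypertrophic genes had 4 higher, with Mmp13, a collagenase gene, at 3.05 and Ibsp, a bone sialoprotein gene, at 1.85, and 8 lower of 15. Free RNA held Mmp13 at 523 CPM in Abcg2-MDS/AML and 177 CPM in Control, above the 141 and 95.6 CPM of the members. In the 5 Abcg2-MDS/AML members with at least 1000 u of Msmp, 1 cell held all of the Mmp13 UMIs. In Control members with 50 to 100 u, 100 to 200 u and 200 to 1000 u of Msmp, 1 cell held 100%, 71.2% and 84.2% of them. Control members with at least 1000 u had 0 Mmp13 UMIs, so single cells carried most of Mmp13 in Control too.

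The other lists are set against 4.21% of all genes higher, 5.64% lower and a median log2 fold change of -0.11. Tendon genes had 8 higher and 1 lower of 13 (median 1.72), and Wnt and BMP modulators 8 higher and 5 lower of 22 (0.22). Thbs4 and Cilp2 belong to both the tendon and the superficial zone list and were counted as higher in each. Proteases and inhibitors had 8 higher and 10 lower of 29 (-0.37), and insulin-like growth factor and CCN genes 5 higher and 1 lower of 13 (0.65). Of 7 blood genes 3 globin genes were higher, and 1 Control cell held 85.6% of the blood UMIs of the Control members. Without the block the calls numbered 66 higher and 107 lower, with 2 of the superficial genes higher, and with DESeq2 185 higher and 205 lower. Col1a1, counted among the 8 tendon genes, was not called without members of at least 1000 u (adjusted p = 0.977).

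The second class comparison set the members against Angptl7-high tendon cells (at least 10 u of Angptl7), a class of the same libraries whose 16 tendon and fibrocartilage genes summed to 205 u in Abcg2-MDS/AML and 174 u in Control, against 32.7 u and 67.9 u in the members of these libraries. Here 15 of 22 hyaline matrix genes were higher in members, and 10 of 15 tendon genes were lower. Of 9450 genes tested, again in Abcg2-MDS/AML and Control, 6.15% were called, of which 285 were higher in members (3.02%) and 296 lower (3.13%).

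Gdf6 stood apart here too, at 70.5 CPM in members against 0.585 CPM in tendon cells of Abcg2-MDS/AML and 318 CPM against 0.745 CPM in Control, a log2 fold change of 7.82. Bpifb1, a secreted lipid-binding family gene, had the largest fold at 219 against 0.195 CPM and 73.8 against 0.745 CPM (8.42), from 136 UMIs in members. In Abcg2-MDS/AML all 31 of its UMIs came from 1 cell, and in Control 97 came from 10 cells with at least 1000 u of Msmp. Tspan13, a tetraspanin gene, stood at 275 against 11.9 CPM and 365 against 14.9 CPM (4.57), and Mia, a cartilage-derived secreted protein gene, had a log2 fold change of 3.99. The ETS factor gene Etv5 (3.82), Smoc1 (3.75), the death receptor gene Tnfrsf21 (3.56), the angiotensinogen gene Agt (3.34), the prohormone-processing gene Cpe (3.29) and the BMP family gene Gdf10 (3.26) complete the 10 largest. Mia was at 274 CPM in free RNA of Control, above the 92.1 CPM of the Control members.

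The 10 genes named as lower in members included several matrix genes. The fibulin genes Fbln2 (-7.08) and Fbln1 (-4.79), the tetranectin gene Clec3b (-6.85) and Thbs2 (-4.90) had between 2 and 11 UMIs each in members and between 933 and 1691 in tendon cells. Aspn, the asporin gene, stood at 0 against 205 CPM in Abcg2-MDS/AML and 18.3 against 386 CPM in Control (-4.57). Vcan (-4.51), Mfap5 (-4.49), the oxidase gene Nox4 (-6.26), the neuropeptide gene Npy (-5.30) and Ly6a, which encodes Sca-1 (-4.65), were the others.

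In the hyaline matrix list 15 of 22 genes were higher in members than in tendon cells and 2 lower, with a median log2 fold change of 1.84 against -0.06 over all genes. Col2a1 stood at 952 against 110 CPM in Abcg2-MDS/AML and 1567 against 521 CPM in Control (2.31). In Control free RNA, Col2a1 was at 10270 CPM, above the members. Of these 15 genes only Matn4 and Hapln3 stood higher in Control members than in Control free RNA. Acan was at 317 CPM in these members and 1231 CPM in this free RNA, and Lect1 at 81.5 and 1455 CPM. After subtraction of free RNA 14 of the hyaline genes were higher, and without the block 1 was. The subtraction was scaled by the globin UMIs of each class. In Abcg2-MDS/AML both classes had 0 globin UMIs, so nothing was subtracted there. In the Control members 1 cell held 85.6% of the blood UMIs, so this check cannot settle the part of free RNA. Sox9 (1.18), Sox5 (1.35), Sox6 (1.14), Barx1 (1.56), Foxa3 (2.69) and Osr2 (1.43) were the 6 of 14 transcription factor genes that were higher, and DESeq2 called none of these 6. Control free RNA held Sox9 at 861 CPM and Foxa3 at 27.1 CPM, above the 681 and 21.1 CPM of the Control members. The others of the 6 were higher in the Control members than in this free RNA. In the tendon list 0 of 15 were higher and 10 lower, among them Tnmd, the tenomodulin gene (-5.45), and Scx, the tendon factor gene (-2.67), although Scx stood at 14.1 against 6.44 CPM in Abcg2-MDS/AML and at 7.03 against 61.5 CPM in Control.

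Clu (0.21, adjusted p = 0.932), Cilp (0.23, adjusted p = 0.903) and Comp (-0.38, adjusted p = 0.705) were not called between members and tendon cells. 1500015O10Rik (0.59, adjusted p = 0.359) pointed both ways, at 8898 against 3386 CPM in Abcg2-MDS/AML and 18110 against 20807 CPM in Control. Cytl1 was higher in members (2.52), as were Crispld1 (3.24), Prg4 (1.97) and Wif1 (1.99), and 6 of 16 superficial genes were higher and 5 lower. The class markers Cytl1 and Crispld1 are among these 6. Over all genes 3.02% were higher and 3.13% lower, with a median log2 fold change of -0.06. Of 7 fibroblast genes 4 were lower (median -1.80), of 26 acute phase genes 9 were lower and 1 higher (-0.53), of 29 proteases and inhibitors 13 were lower and 3 higher (-0.83), and of 15 fibrillar and network collagen genes 6 were lower (-0.79). Only 1 of the 3 higher proteases and inhibitors and 8 of the 9 lower acute phase genes had the same sign in both libraries. Log2 ratios in Abcg2-MDS/AML and Control were -1.24 and 2.81 for Mmp3, and 2.86 and -0.67 for Serpina1d. Without the block 15 genes were higher and 6 lower, and with DESeq2 81 and 68. Adding the NHD13Tg members by lowering the minimum to 5 cells gave 187 higher and 278 lower.

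**Figure D3:**
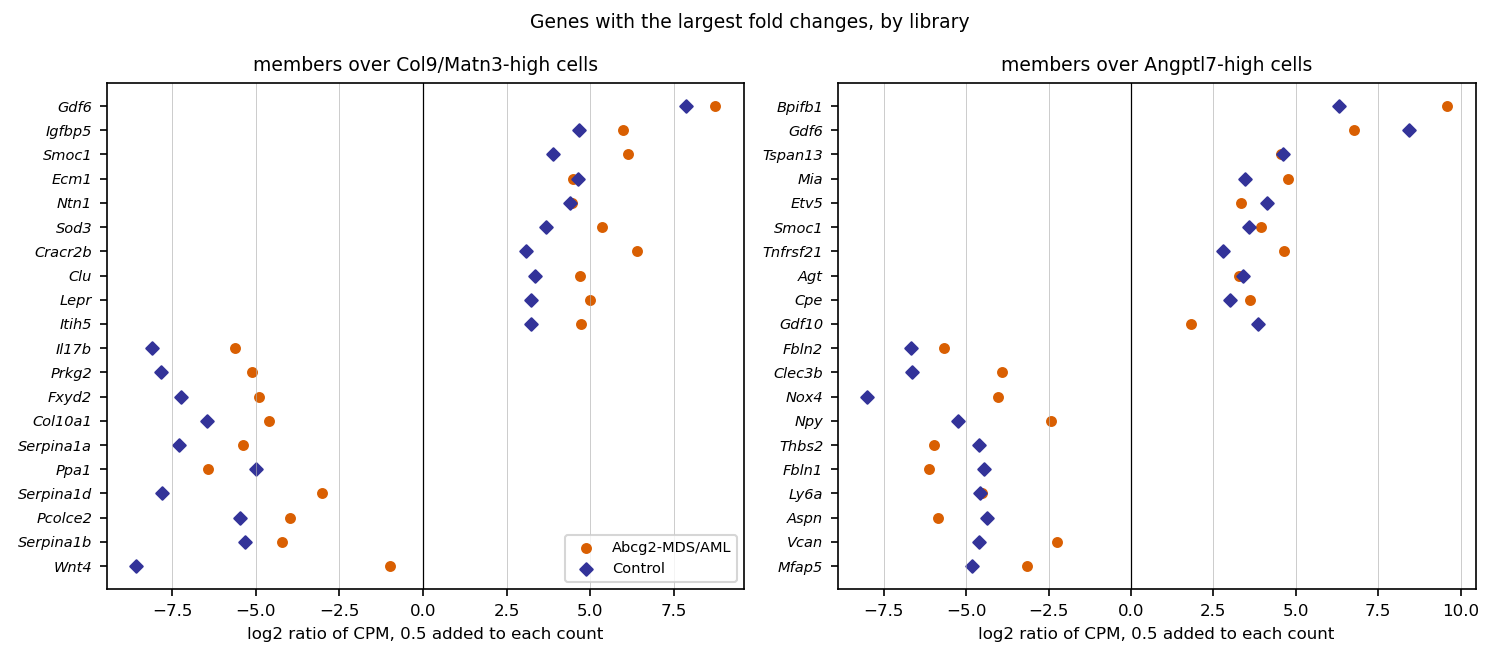
Log2 ratios of CPM in members over hyaline chondrocytes (left) and over Angptl7-high tendon cells (right) for the 20 named genes of each comparison, with 0.5 added to each count; circles are Abcg2-MDS/AML and diamonds Control. Both libraries lie on the same side of 0 for every gene drawn, which the choice of genes required, and Wnt4 differs most between them (-0.99 and -8.60).

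Among the Control members, the cells with most Msmp differed from those with least. Bands of Msmp were set after the values had been seen, as 50 to 100 u (47 cells), 100 to 200 u (62), 200 to 1000 u (101) and 1000 u or more (62), in which Msmp was 0.729%, 1.42%, 4.70% and 40.2% of UMIs. Levels were therefore taken per 10000 UMIs other than Msmp. Median depths without Msmp were 5288, 4805, 4308 and 4475.5 UMIs from the lowest band to the highest.

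In Control, Prg4 was lower with each band, at 810, 672, 526 and 181 per 10000. Gdf6 was higher with each band, at 0.832, 1.48, 3.00 and 7.76 per 10000, and Smoc1 stood at 1.97, 1.96, 4.33 and 9.50. Of genes chosen after their values had been seen, Ssr4, a translocon subunit gene, stood at 4.92, 5.82, 8.44 and 24.4, the cargo receptor gene Tmed3 at 3.29, 2.91, 3.87 and 14.9, and the chaperone gene Sdf2l1 at 0.567, 0.653, 0.833 and 3.30. Cytl1, at 248, 180, 222 and 179, and 1500015O10Rik, at 171, 153, 191 and 206, showed no such order. Col2a1 stood at 16.1, 20.8, 16.3 and 7.80.

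**Figure D4:**
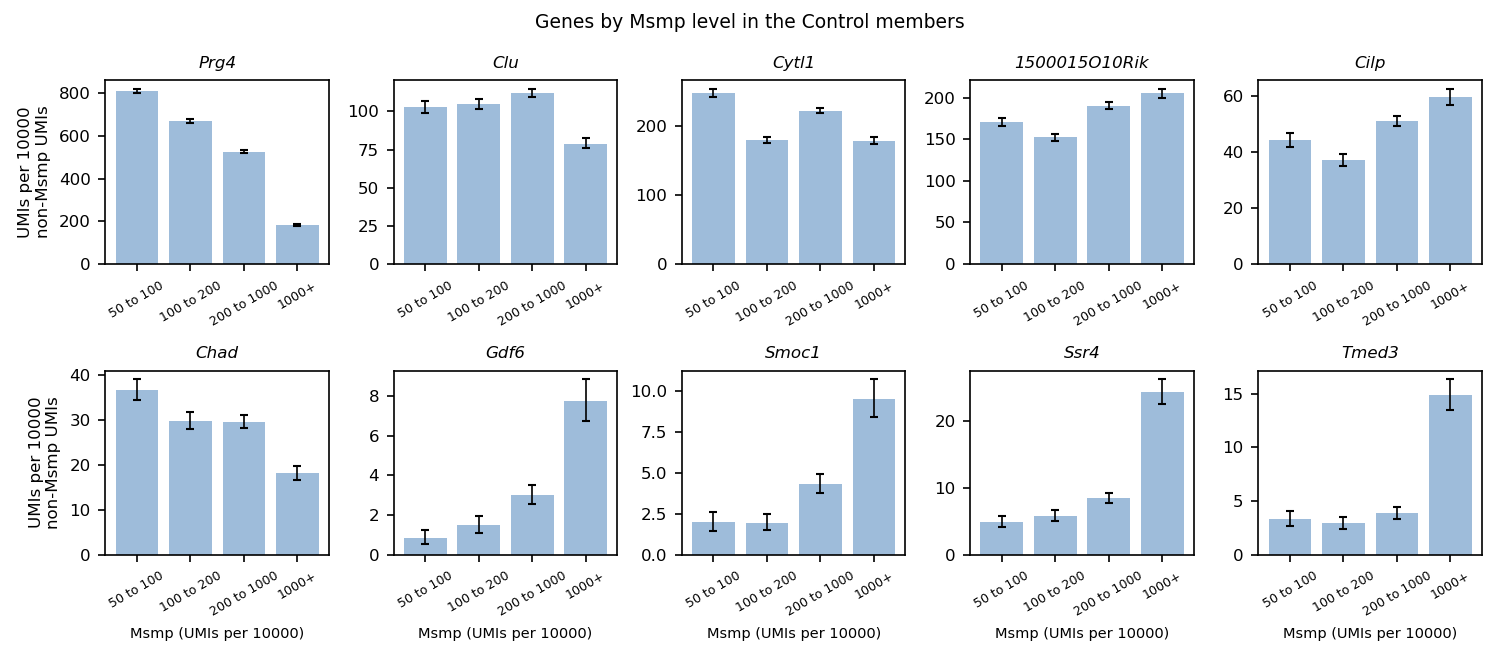
Levels of 10 genes in the Control members by band of Msmp, in UMIs per 10000 UMIs other than Msmp, summed over the 47, 62, 101 and 62 cells of the bands; error bars are exact Poisson intervals and cover counting error only. Prg4 steps down across all 4 bands, and Gdf6, Smoc1, Ssr4 and Tmed3 are highest in the band of 1000 u or more.

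Between the top band and the members under 200 u, 2733 genes reached 50 CPM in either group, with Msmp left out. Of these, 203 (7.43%) were higher by 2-fold or more and 116 (4.24%) lower. Ssr4 stood at 2439 CPM in the top band against 542 CPM in the lower members (log2 ratio 2.17), Fkbp2, an endoplasmic reticulum foldase gene, at 691 against 168 CPM (2.04), and Fkbp11 at 195 against 26.6 CPM (2.84). The keratin gene Krt18 (5.53), the receptor partner gene Ramp1 (4.84), the activin antagonist gene Fst (3.15) and Gdf15 (2.89) were also higher. Lower in the top band were Ndufa4l2 at 35.4 against 657 CPM (-4.14), Sparcl1 (-3.43), Spp1, the osteopontin gene (-3.04), Thbs1 (-2.90), Thbs4 (-2.73), Lepr (-2.68) and Prg4 (-2.02). In the 5 top-band cells of Abcg2-MDS/AML against its 14 members under 200 u, Ssr4 stood at 2257 against 273 CPM, Tmed3 at 1060 against 79.6 CPM and Prg4 at 16860 against 43890 CPM. Spp1 went the other way from Control, at 1106 against 477 CPM, with 79.2% of its top-band UMIs from 1 cell. The order of Prg4 was not stepwise in Abcg2-MDS/AML, at 475, 232, 485 and 169 per 10000 from the lowest band to the highest. In NHD13Tg, with 1, 1, 3 and 3 cells in the bands, Prg4 stood at 18.1, 41.8, 257 and 141 per 10000, so that it was higher in the top band than in the 2 lowest bands. Ssr4 stood at 7.23, 13.9, 0.876 and 12.6 per 10000 in these NHD13Tg bands, with no order.

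Rgp1 was higher in the top band as well, at 315 against 18.3 CPM (4.05), but its value is uncertain. The whole Msmp gene lies inside exon 9 (43582860 to 43587487) of an Rgp1 transcript on the opposite strand, and the strand setting of the counting is not given in the sources used here. There were 2.06, 1.44, 0.601 and 0.469 Rgp1 UMIs per 1000 Msmp UMIs from the lowest band to the highest.

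Within the class, the Abcg2-MDS/AML members were set against the Control members, while the NHD13 pair could not be compared because WT_A1 had no member. With 27 and 272 cells and 152977 and 1646802 UMIs, genes with at least 20 CPM in 1 library were considered, and a size rule took those at least 2-fold apart whose exact counting interval left out a ratio of 1. Of 5107 genes, 386 were higher (7.56%) and 298 lower (5.84%) in Abcg2-MDS/AML. TMM scaling moved every log2 ratio by -0.142 and gave 316 higher and 403 lower, and leaving Msmp out of the total moved every ratio by -0.102 and gave 359 and 370. The rule is a description of 2 libraries. CPM in this pair count all UMIs, Msmp included, and so differ from the CPM of the class comparisons. In 71 of the genes called higher and 13 called lower, more than 50% of the UMIs of the higher library came from 1 cell, and in 218 called genes free RNA reached the level in the members.

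The marker genes of the class did not pass the 2-fold rule. Msmp stood at 72044 CPM in Abcg2-MDS/AML and 135441 CPM in Control (log2 ratio -0.91), and Cytl1 at 32704 and 18003 CPM (0.86). Prg4 stood at 37868 and 47120 CPM (-0.32). Of 16 superficial zone genes 0 were higher and 4 lower: Wif1 at 732 and 1885 CPM (-1.36), Cilp2 at 320 and 706 CPM (-1.13), Creb5 at 65.4 and 154 CPM (-1.17) and Abi3bp at 209 and 462 CPM (-1.12). The list median was -0.63, against 0.03 over all genes and -1.98 for the same genes in hyaline chondrocytes of the 2 libraries. Gdf6, described above against hyaline chondrocytes, stood at 65.4 CPM (10 UMIs in 5 cells) in Abcg2-MDS/AML and 275 CPM (453 UMIs in 137 cells) in Control, a log2 ratio of -2.004 (interval -3.14 to -1.18).

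Among genes of high level, which were chosen after their values had been seen, Ctgf, a matricellular gene, stood at 5896 CPM in Abcg2-MDS/AML and 1177 CPM in Control (2.32). Txnip, an inhibitor of thioredoxin, stood at 1634 and 116 CPM (3.82), Tsc22d3, a glucocorticoid-inducible gene, at 1164 and 116 CPM (3.33), and the glutamine synthetase gene Glul at 896 and 104 CPM (3.11). In hyaline chondrocytes the log2 ratios of these 4 genes were 0.81, 2.66, 2.72 and 2.38. Free RNA held the 4 genes at 3315, 1160, 1023 and 433 CPM in Abcg2-MDS/AML and at 1194, 125, 163 and 69.2 CPM in Control. Comp stood at 2504 and 5192 CPM (-1.05), Igfbp5 at 765 and 2183 CPM (-1.51), Fmod, the fibromodulin gene, at 405 and 1176 CPM (-1.53) and the flow-sensitive factor gene Klf2 at 445 and 1475 CPM (-1.72). In hyaline chondrocytes the log2 ratios were -1.79 for Comp, -2.92 for Igfbp5, -2.11 for Fmod and -0.18 for Klf2. Chad stood at 5837 and 2484 CPM (1.23), but at a minimum of 100 u of Msmp its ratio was -0.02. Free RNA held Chad at 5079 CPM in Abcg2-MDS/AML and 3873 CPM in Control.

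The rule for the largest ratios named mostly genes with few counts. Pdk4, a kinase gene that restrains pyruvate oxidation, had 27 UMIs in 12 Abcg2-MDS/AML cells and 7 UMIs in 5 Control cells, or 177 and 4.25 CPM (5.30). The other 7 genes, D730045B01Rik, Adora1, Sgip1, Ror1, Pawr, Slc22a23 and Arhgef26, had 4 to 6 UMIs in Abcg2-MDS/AML and 1 to 3 in Control. The 8 named on the lower side, Wfdc12, Cgref1, Smco4, Marcksl1, Stc1, 5930412G12Rik, Wipf1 and Grk5, had 0 UMIs in Abcg2-MDS/AML and 55 to 93 in Control. Against 3 counts over the group these 8 were at least 1.70 to 2.88-fold lower in Abcg2-MDS/AML, a limit that counts UMIs and not cells. The UMIs of Wfdc12 came from only 7 Control cells, with 38.7% from 1 of them. Those of Stc1 came from 8 Control cells, with 46.8% from 1. The others of the 8 were seen in 45 to 55 Control cells.

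This and the following lists are set against 7.56% of all genes higher, 5.84% lower and a median log2 ratio of 0.03. Antioxidant and metal genes had 7 of 18 higher and 1 lower in Abcg2-MDS/AML, with a median of 0.67, against 0.41 in hyaline chondrocytes. Gpx3, an extracellular glutathione peroxidase gene, stood at 2661 and 679 CPM (1.97), Gstm1 at 229 and 61.3 CPM (1.91) and Sod2 at 170 and 68.6 CPM (1.33). Free RNA of Abcg2-MDS/AML held Gpx3 at 2547 CPM, and its log2 ratio in hyaline chondrocytes was 1.33. The metallothionein genes Mt1, at 4497 and 366 CPM (3.62), and Mt2, at 1608 and 119 CPM (3.75), were among the 7, but free RNA reached their level in the members. Sod3 was the gene that was lower, at 216 and 535 CPM (-1.29).

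Heat shock and unfolded protein genes had 0 of 25 higher and 9 lower, with a median log2 ratio of -0.93, against -0.57 in hyaline chondrocytes. Free RNA reached the level in the members in 3 of these 9 genes. The chaperone gene Hsp90b1 stood at 458 and 987 CPM (-1.10), the disulfide isomerase gene Pdia3 at 314 and 644 CPM (-1.02), and Sdf2l1 at 13.1 and 106 CPM (-2.71) from 2 and 175 UMIs. In the Control bands 3 of 25 genes of this list (12%, against 7.43% of all genes) were higher in the top band by 2-fold or more. That band held 5 of 27 Abcg2-MDS/AML members and 62 of 272 Control members. Without the top band 11 genes were lower. The number lower was 14 with TMM scaling, 14 with Msmp out of the total and 2 with 5 added to each count.

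Acute phase genes had 8 of 17 higher and 1 lower, and proteases and inhibitors 12 of 27 higher and 2 lower, but single cells carried most of this. In 7 of the 8 acute phase genes and 8 of the 12 protease and inhibitor genes more than 50% of the Abcg2-MDS/AML UMIs came from 1 cell. Icam1, an adhesion gene, was the exception among the 8, at 248 and 97.2 CPM (1.37). C3 had all of its 23 UMIs in 1 cell, and without barcodes shared between libraries its ratio was -1.05 and that of Adamts1 -2.35. Timp3, a protease inhibitor gene, stood at 948 and 343 CPM (1.47) and was spread over 15 cells. Its log2 ratio in hyaline chondrocytes was 0.96. Free RNA reached the level in the members in 5 of the called acute phase genes and in 11 of the called protease and inhibitor genes.

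Of the small leucine-rich proteoglycans 4 of 10 were higher and 1 lower, and of the tendon genes 2 of 10 were higher and 5 lower. Free RNA reached the level in the members in 1 of the called proteoglycan genes and 4 of the called tendon genes. In 1 higher proteoglycan gene, 1 higher tendon gene and 1 lower tendon gene, 1 cell held over 50% of the UMIs of the higher library. All 4 blood genes considered and 4 of 6 osteoblast genes were lower in Abcg2-MDS/AML, but in all 4 blood genes and 3 of the osteoblast genes a single Control cell held over 50% of the UMIs, 76.0% for Col1a1. Free RNA reached the level in the members in all of these 4 blood and 4 osteoblast genes. After removal of the highest doublet scores, which took 3 Abcg2-MDS/AML and 11 Control members, 0 blood genes and 2 osteoblast genes were lower.

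**Figure D5:**
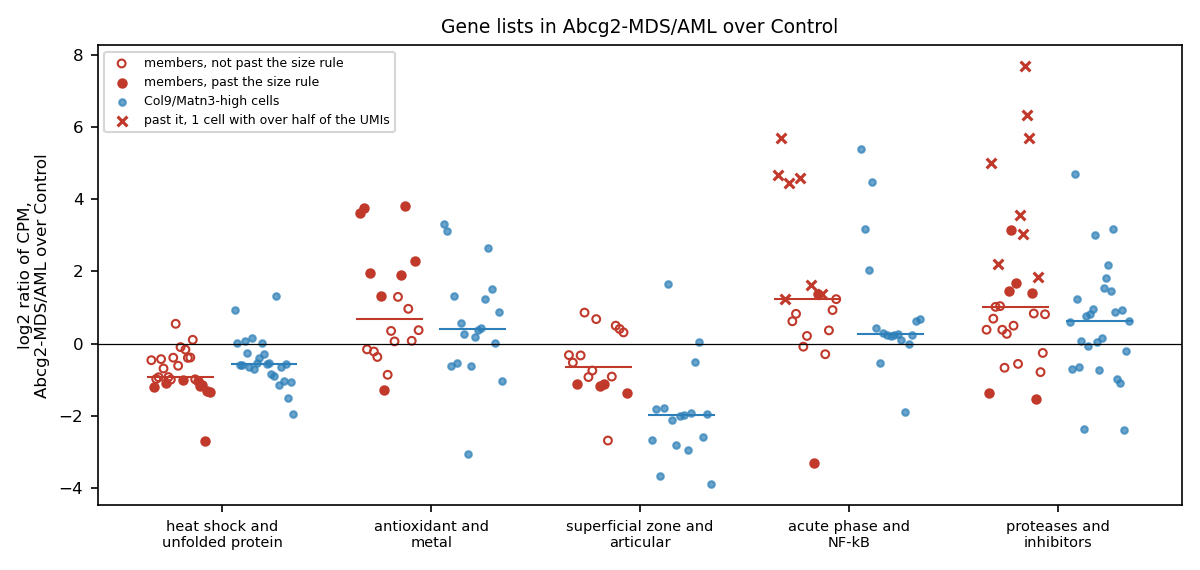
Log2 ratios of CPM in Abcg2-MDS/AML over Control for 5 gene lists, in members (red) and in hyaline chondrocytes (blue); filled red points pass the 2-fold size rule, open ones do not, crosses pass it with over 50% of UMIs in 1 cell, and bars are list medians. The heat shock and unfolded protein list has its median at -0.93 in members, and most passing acute phase genes are crosses.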

How the data were processed

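Stromal cells of 4 libraries were read from UMI counts of 27998 genes as deposited by the authors, in raw matrices that hold all barcodes. Per the submitters' processing notes Cell Ranger 3.1.0 and Seurat 3.2.3 were used; which genome build, annotation and counting settings is not given in the sources used here. Libraries were built with a Chromium 3' kit, per the labels' protocols, so that reads mark 3' ends. Gene coordinates come from GENCODE vM21 (GRCm38) and promoter sequences from RefSeq (GRCm38.p6).

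Members and lists were chosen with earlier results of these data known. Levels are summed UMIs, with exact Poisson, Clopper-Pearson or conditional binomial intervals; differences of shares combine both intervals. No cell filter other than that of the rule was applied. Scrublet (scanpy 1.11.5) by its own threshold marked 0 or 1 barcodes per library, so doublets stayed in, and as an alternative the highest scores were removed at 0.8% per 1000 barcodes. Class sums were tested with edgeR 4.0.16 (R 4.3.3; TMM, filterByExpr), with DESeq2 1.42.0 as an alternative, after checking on simulated data. The test was designed for 4 libraries, and its minimum of 20 cells left 2. Named genes of a class test are the 10 largest fold changes per direction with adjusted p at most 0.05, the same sign in both libraries and a mean of at least 50 CPM. Named genes of the pair are the 8 largest ratios per direction within the size rule, leaving out genes with over 50% of UMIs in 1 cell or with free RNA at their level. Members of described lists and the markers were also named. Ratios have 0.5 added to each count. For the genes named in the Msmp bands and at high level, the choice followed their values. Of the list symbols, 6 are not in the files' gene names. Alternatives tried were other thresholds of the rule, other scalings, other filters, thinning to 2000 UMIs, and subtraction of free RNA scaled by the globin UMIs of each class.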

Additional observations from a re-analysis of the deposited data

Results flagged for a closer look

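The share of members differed within both pairs in opposite directions, by 0.139 percentage points for NHD13Tg minus WT_A1 and by -4.79 points for Abcg2-MDS/AML minus Control; this difference between the pairs was not tested, since each group has 1 library. In barcodes with 1 to 100 UMIs, which lie outside the cells compared, Msmp stood at 1.003 u in NHD13Tg against 0.0763 u in WT_A1, from 214 and 14 UMIs.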

How the results depend on the processing

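The share of members in Abcg2-MDS/AML minus Control was -5.56 points with a Msmp minimum of 25 u and -4.08 points with 100 u, against -4.79 points as reported, and under the other 7 alternatives it moved by less than the counting interval. The NHD13 difference moved by less than its interval under all 9. Against hyaline chondrocytes, 450 genes were higher and 604 lower; DESeq2 gave 185 and 205, and the fit with no replicate block, which drops the library term, gave 66 and 107. Against tendon cells, 285 were higher and 296 lower; DESeq2 gave 81 and 68, the fit with no replicate block 15 and 6, and a minimum of 5 barcodes 187 higher. In the Abcg2 pair 298 genes were lower as reported, 63 with 5 added to each count and 153 with a Msmp minimum of 100 u. At 100 u the log2 ratios were -0.0238 for Chad, -0.46 for Lect1, -3.54 for Ptgs2, -0.22 for Nfkb1, -0.24 for C3, -3.01 for Adamts1 and 0.0074 for Cilp. With the highest doublet scores removed they were -0.11 for C3, -1.81 for Adamts1 and 0.43 for Car2, and without shared barcodes -1.05 for C3 and -2.35 for Adamts1; the cause was not tested. Of the named genes no class ratio reversed; 7 of those against hyaline chondrocytes and 17 of those against tendon cells lost their call with DESeq2, and 26 and 48 with no replicate block. Not run were the class tests at 100 u, which leaves 16 Abcg2-MDS/AML members, and without either tested library, which leaves no residual degrees of freedom, as well as all fits within the NHD13 pair. With 27 members in Abcg2-MDS/AML, depth limits what genes of few UMIs can show.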
